A study of Mus musculus with 2 samples.

Results

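Cells that carried transcripts of both Foxa2 and T were examined in day 2.5 mouse gastruloids, and 285 such cells were found among 19294 cells of 2 libraries. A cell was counted as double-positive if it had at least 1 UMI of Foxa2 and at least 1 UMI of T, a UMI being a molecular tag that lets copies of 1 captured molecule be counted once. Only barcodes with at least 2500 UMIs, at least 1000 genes and at most 10% mitochondrial UMIs were used. The double-positive cells were set against 5082 T-only cells (T present, no Foxa2 UMI) and 13688 double-negative cells (neither gene), with 239 Foxa2-only cells as a further reference. The cells were chosen by their measured Foxa2 and T UMIs, so the values of these 2 genes are given as a description and support nothing.

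Gastruloids are aggregates of embryonic stem cells that begin to form a body axis in culture. Both libraries came from the R1 mouse embryonic stem cell line, aggregated at about 300 cells in N2B27, a serum-free medium. Wnt signalling was switched on in all aggregates with 3 µM CHIR, which inhibits GSK3; the pulse began on day 2, lasted 12 hours and ended with collection at day 2.5. One library is labelled wild type and the other Sp5/8 double knockout, and each genotype has 1 library. They are called the wild-type-labelled and the knockout-labelled library below. There is therefore no replicate and no test of any difference, and the intervals below are 95% intervals that cover counting error only. Cells of 1 library share their culture and are not replicates.

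T, also called Brachyury, is a T-box transcription factor expressed through the primitive streak and its mesoderm progeny. Foxa2 is a forkhead transcription factor of the anterior streak, the node, the notochord and the endoderm. In the mouse embryo, cells at the anterior end of the streak pass through a state in which both are expressed before they give rise to axial mesoderm and definitive endoderm. Nodal signalling, with Eomes and Wnt activity, is known to drive this state. In the annotation used (GENCODE M21 on GRCm38), Foxa2 (ENSMUSG00000037025) occupies chromosome 2, 148042877 to 148046969, minus strand, and T (ENSMUSG00000062327) occupies chromosome 17, 8434423 to 8442496, plus strand. Neither overlaps another annotated gene.

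The libraries held 104083993 UMIs (labelled wild type) and 103187025 UMIs (labelled double knockout) over all barcodes, and 8707 and 10587 cells were kept with a median of 10571 and 8637 UMIs. The targeted genes went against the labels. In double-positive cells Sp5, a zinc finger factor and direct Wnt target, stood at 191.5 CPM (CPM is a gene's share of all UMIs of the summed cells, scaled as is usual; interval 166 to 220) in the wild-type-labelled library and at 683 CPM (650 to 717) in the knockout-labelled library. Sp8, its close relative, stood at 20.6 and 39.8 CPM. Sp5 (ENSMUSG00000075304) occupies chromosome 2, 70474923 to 70477729, and Sp8 (ENSMUSG00000048562) chromosome 12, 118846329 to 118852576, both on the plus strand. Counts at the 3′ end of a gene do not tell an intact allele from an edited one, so the libraries are named by their labels throughout and no direction between them stands for loss of Sp5 and Sp8. The libraries shared 27 cell barcodes, which is 0.310% of the kept cells of the wild-type-labelled library.

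Double-positive cells made up 75 of 8707 cells (0.861%, exact Clopper-Pearson interval 0.678 to 1.08) in the wild-type-labelled library. In the knockout-labelled library they made up 210 of 10587 cells (1.98%, 1.73 to 2.27). The share was thus higher in the knockout-labelled library, although its cells were shallower. When every cell was thinned to 2500 UMIs, 12 cells (0.138%, 0.0712 to 0.241) and 39 cells (0.368%, 0.262 to 0.503) remained double-positive. At 5000 UMIs the shares were 0.229% and 0.893%. The ratio between the libraries kept its direction at each depth, while most double-positive cells were lost by thinning.

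Foxa2 was found more often in cells with T than in cells without it. In the wild-type-labelled library, 3.31% of T-positive cells (2.61 to 4.13) and 1.18% of T-negative cells (0.931 to 1.47) had a Foxa2 UMI. In the knockout-labelled library the shares were 6.77% (5.91 to 7.72) and 2.18% (1.86 to 2.53). After thinning to 2500 UMIs they were 1.66% (0.858 to 2.87) against 0.464% (0.327 to 0.638) in the wild-type-labelled library, and 3.57% against 1.19% in the knockout-labelled library. At 5000 UMIs the intervals overlapped in the wild-type-labelled library, at 1.58% (0.952 to 2.45) against 0.874% (0.671 to 1.12), and did not in the other, at 4.68% (3.77 to 5.72) against 1.79% (1.51 to 2.10). At full depth the share with Foxa2 was higher in cells with more T UMIs. Among cells with 1, 2 and at least 3 T UMIs it was 2.45%, 3.93% and 5.92% in the wild-type-labelled library, and the same steps gave 4.87%, 8.67% and 12.4% in the knockout-labelled library. The intervals of the first and the last step do not overlap in either library, while those of neighbouring steps do in most cases. At equal depth the order was held less well. In cells thinned to 2500 UMIs the steps gave 1.70% (11 of 647), 1.56% (1 of 64) and 0 of 14 cells in the wild-type-labelled library, and 3.34%, 5.45% and 4.17% (1 of 24) in the knockout-labelled library, so the order was lost. At 5000 UMIs they gave 1.35%, 1.64% and 5.00% (3 of 60), and 3.70%, 6.98% and 11.7% (12 of 103). The order thus returned at 5000 UMIs, on few cells in the wild-type-labelled library. Seen from the other side, 49.7% of Foxa2-positive cells in the wild-type-labelled library and 56.3% in the knockout-labelled library carried T.

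**Figure D1:**
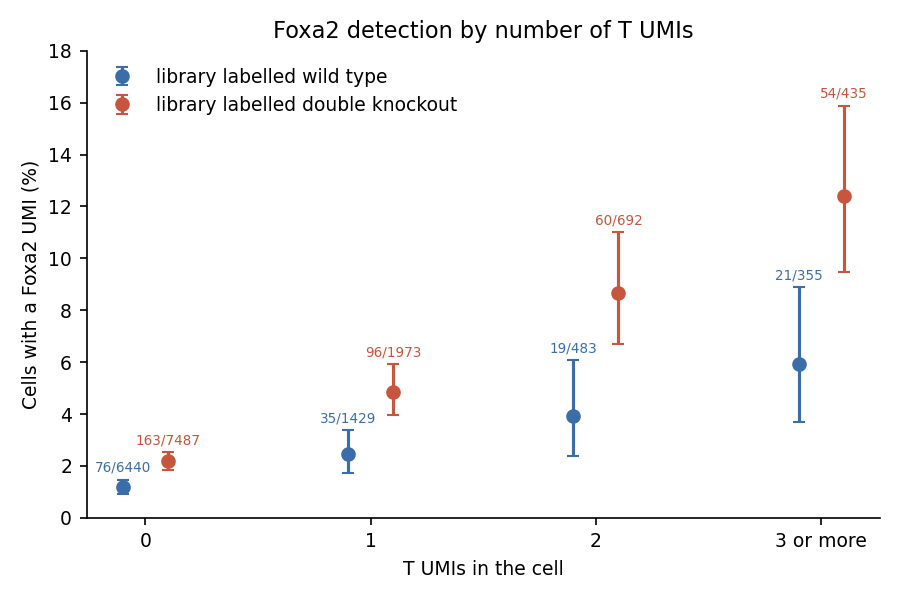
Share of kept cells with a Foxa2 UMI (y axis, percent) by the number of T UMIs in the cell (x axis) in both libraries; points are shares, bars are exact 95% binomial intervals and the labels give cells with Foxa2 over all cells of the step. With all UMIs used and no thinning, the share goes from 1.18% to 5.92% in the wild-type-labelled library and from 2.18% to 12.4% in the knockout-labelled library.

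Cells of another fate served as a background for free RNA, which leaks UMIs into cells that do not express a gene. Among cells with at least 3 of 7 neural markers, none of 232 was double-positive in the wild-type-labelled library, which allows a share of up to 1.29%. Among 75 such cells of the knockout-labelled library 1 was (1.33%, 0.0338 to 7.21). The shares of 0.861% and 1.98% among all kept cells lie within these limits, so they cannot be set above this background at this depth. The neural cells had median depths of 11534 and 9206 UMIs. T was found in 10.3% and 6.67% of those neural cells, against 26.04% and 29.3% of all kept cells. Foxa2 was found in 5 of 232 neural cells (2.16%, 0.703 to 4.96) and 1 of 75 (1.33%, 0.0338 to 7.21), against 1.73% and 3.52% of all kept cells. The shares of all kept cells lie within these wide intervals, so a single Foxa2 UMI is not told apart from background in either library. Whether the Foxa2 UMIs of the neural cells are free RNA was not tested. Barcodes with at most 100 UMIs, taken to hold free RNA, carried Foxa2 at 1.71 and 3.24 CPM and T at 31.1 and 36.4 CPM, against 2.28 and 6.81 CPM of Foxa2 and 38.8 and 50.7 CPM of T in kept cells.

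Most double-positive cells sat close to the threshold. A single UMI of each gene was the whole evidence in 27 of 75 cells of the wild-type-labelled library and in 65 of 210 cells of the knockout-labelled library. At least 2 UMIs of each were present in 11 and 46 cells. Just outside the threshold stood 1394 and 1877 cells with 1 T UMI and no Foxa2, and 58 and 119 cells with 1 Foxa2 UMI and no T. The highest Foxa2 count in a double-positive cell was 6 and 11 UMIs, and the highest T count was 6 and 9. Summed over the double-positive cells, Foxa2 stood at 111 and 173 CPM and T at 155 and 181 CPM. Foxa2-only cells had a similar Foxa2 level of 121 and 158 CPM, and T-only cells had T at 129 and 150 CPM.

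The double-positive cells were deeper than the rest, and were also compared with it in doublet scores and chromosome shares. Their median was 12757 and 10196 UMIs, against 11758.5 and 9729 in T-only cells and 10124 and 8233 in double-negative cells. High doublet scores were given to 6.67% (2.20 to 14.9) and 16.7% (11.9 to 22.4) of double-positive cells. They were given to 11.1% and 13.6% of T-only cells, shares inside these intervals, and to 5.55% and 6.25% of double-negative cells. The 35 high-scoring double-positive cells in the knockout-labelled library had Foxa2 at 129 CPM, and the other 175 had it at 187 CPM. Cells with a low share of chromosome 6 transcripts, at most 0.8 times the median and counted in cells of at least 4000 UMIs, made up 48.0% and 30.5% of double-positive cells against 27.3% and 16.5% of T-only cells. For chromosome 11 the shares were 41.3% (30.1 to 53.3) and 10.0% (6.30 to 14.9) against 24.7% and 8.19%. The second interval includes the T-only share. Foxa2-only cells were low in 30.3% and 30.9% for chromosome 6 and in 35.5% and 7.41% for chromosome 11, so low shares are not particular to double-positive cells. Cells low on chromosome 6 or 11 were left out as an alternative, and their part in the results was not tested further.

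Most of the anterior streak and organizer genes compared stood higher in the double-positive cells than in T-only cells. Of 8 anterior streak and organizer genes compared with T-only cells (Foxa2 and T left out), 6 were at least 1.5-fold higher in both libraries and none was lower. A gene was compared if its mean level was at least 10 CPM. Over all 7626 genes compared, 32 were higher by this rule, which is 0.42%. The median log2 ratio of the 8 genes was 0.82 and 0.69, against 0.03 and 0.01 for all genes. The 6 genes were Eomes, Mixl1, Gsc, Otx2, Fgf8 and Tdgf1. Most of them are not particular to this list. Eomes, Mixl1 and Fgf8 also belong to the primitive streak and nascent mesoderm list, and Otx2 and Tdgf1 to the primed epiblast list. Of 11 primitive streak genes compared, these 3 were called higher and none lower, with medians of 0.23 and 0.40.

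Mixl1, a homeobox gene of the streak needed for endoderm formation, had the largest step of the 6. It stood at 78.6 CPM (80 UMIs) in double-positive cells, 23.6 CPM in T-only cells and 6.26 CPM in double-negative cells of the wild-type-labelled library. In the knockout-labelled library it stood at 99.8, 25.5 and 9.01 CPM. Its log2 ratio over T-only cells was 1.74 (1.38 to 2.07) and 1.97 (1.75 to 2.18). In both libraries the interval of the double-positive level lay above the levels of the other classes. With at least 2 UMIs of each gene required (11 and 46 cells) the ratio was 3.37 and 2.33. With membership set on cells thinned to 2500 UMIs (12 and 39 cells) it was 1.45 and 1.75. Thinned to 2500 UMIs, 5.33% (4 cells, 1.47 to 13.1) and 19.5% (14.4 to 25.5) of double-positive cells had Mixl1. The shares of T-only cells were 4.74% and 5.78%. The interval in the wild-type-labelled library includes the T-only share, so this share was seen to differ in the other library only.

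Gsc (goosecoid), a homeobox repressor of the organizer, showed the same order at a lower level. It stood at 32.4, 16.1 and 7.86 CPM in double-positive, T-only and double-negative cells of the wild-type-labelled library, and at 71.9, 31.8 and 17.5 CPM in the knockout-labelled library. The log2 ratio over T-only cells was 1.03 (0.46 to 1.52) and 1.18 (0.93 to 1.41). Gsc was present in 33.3% and 49.0% of double-positive cells, against 16.4% and 25.1% of T-only cells. Thinned to 2500 UMIs, these shares were 5.33% (4 of 75 cells, 1.47 to 13.1) and 14.3% (9.85 to 19.8) against 3.42% and 7.99%. The interval in the wild-type-labelled library includes the T-only share, so the step was seen at this depth in the other library only.

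Eomes, the T-box factor required for definitive endoderm and anterior mesoderm, was the most abundant of the transcription factors in the list. Its level was 231, 137 and 69.1 CPM in double-positive, T-only and double-negative cells of the wild-type-labelled library, and 401, 236 and 151 CPM in the knockout-labelled library. The ratio over T-only cells was nearly the same in both, at 0.75 (0.55 to 0.94) and 0.77 (0.67 to 0.86). After thinning, 37.3% (26.4 to 49.3) and 61.9% (55.0 to 68.5) of double-positive cells had Eomes, against 26.5% and 40.4% of T-only cells. An annotated gene overlaps Eomes on the opposite strand, and the strand setting of the counting is not given in the sources used here, which makes Eomes less certain than Mixl1 and Gsc. The same holds for Otx2.

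Otx2, a homeobox gene of the epiblast and of anterior identity, stood at 60.9 against 37.5 CPM in T-only cells of the wild-type-labelled library and at 98.5 against 64.9 CPM in the other. Fgf8, the ligand that streak cells need in order to migrate, stood at 287 against 142 CPM and at 387 against 204 CPM. Tdgf1 (Cripto), the co-receptor through which Nodal signals, stood at 78.6 against 42.6 CPM and at 93.0 against 61.0 CPM. For each of these 3 genes the double-negative cells were lower again. Mixl1, Gsc, Eomes and Fgf8 stayed past 1.5-fold in both libraries with at least 2 UMIs of each gene, with membership on thinned cells, without cells low on chromosome 6 or 11 and without high doublet scores. Otx2 and Tdgf1 did not. Without cells low on chromosome 6 or 11, Otx2 had log2 ratios of 0.55 and 0.49 and Tdgf1 0.72 and 0.39, and with membership on thinned cells Otx2 had 0.50 and 0.22 and Tdgf1 0.26 and 0.51. The 2 other members compared, Nodal and Sfrp1, did not pass in both libraries. Nodal stood at 42.2 against 30.9 CPM and 29.6 against 28.4 CPM. Sfrp1, a secreted Wnt antagonist, stood at 15.7 against 28.3 CPM and 18.6 against 22.8 CPM.

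**Figure D2:**
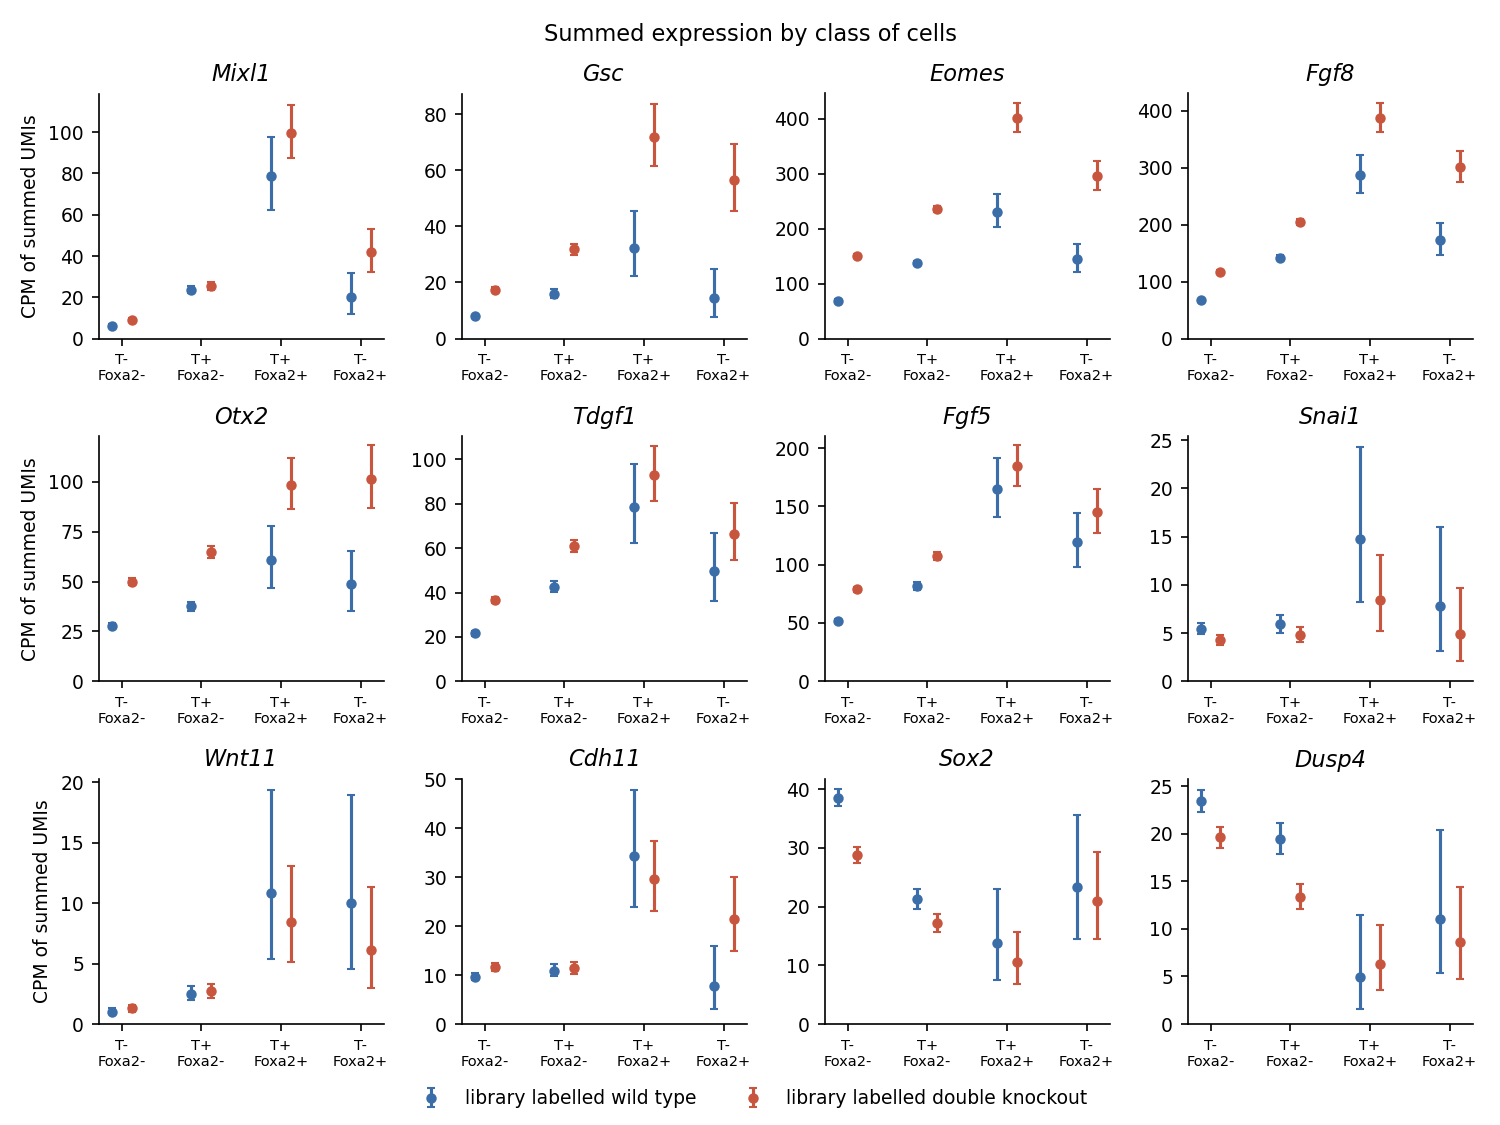
Summed expression of 12 genes (y axis, CPM, each panel with its own scale from 0) in double-negative, T-only, double-positive and Foxa2-only cells of both libraries; points are summed levels and bars exact 95% Poisson intervals. Mixl1, Gsc, Eomes and Fgf8 step up from double-negative to T-only to double-positive cells, while Sox2 and Dusp4 step down.

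Of the organizer genes listed, Chrd, Lhx1, Nog and Cer1 were detected at low levels only. Chrd (chordin), which binds BMP ligands, stood at 9.82 CPM (10 UMIs) in double-positive cells and 3.93 CPM in T-only cells of the wild-type-labelled library, and at 8.46 and 6.65 CPM in the other. Lhx1, a LIM homeobox factor of the organizer, stood at 4.91 CPM (5 UMIs) and 3.38 CPM (8 UMIs), against 2.90 and 1.13 CPM in T-only cells. Nog had 1 and 2 UMIs in all double-positive cells. Cer1, a Nodal and BMP antagonist of anterior endoderm, had none and 1 UMI. These levels lie below 10 CPM, so none of the 4 genes entered the counts.

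Several defining genes of the node and of definitive endoderm were at or near 0, while broadly expressed members of their lists were not. Noto and Shh, a homeobox factor and a secreted ligand of the node and notochord, had no UMI in the 285 cells. Sox17, the endoderm transcription factor, had none in the wild-type-labelled library and 5 UMIs (2.12 CPM) in the knockout-labelled library. Gata6 had none in either library, and Hhex stood at 0.982 and 5.08 CPM, with T-only cells at 6.54 and 4.89 CPM. None of the 6 definitive endoderm genes compared was 1.5-fold higher or lower in both libraries, and of the 2 node and notochord genes compared none was. Over all genes compared 0.42% were higher and 0.144% lower, so the absence of calls among so few genes says little. Of the 17 endoderm genes listed without Foxa2, 8 and 3 had no UMI in double-positive cells, and the largest part of the list's UMIs came from broadly expressed genes such as Trh and Epcam. The 17 endoderm genes summed to 1259 and 1553 CPM in double-positive cells, against 1361 and 1665 CPM in T-only cells. The 18 node and notochord genes summed to 81.5 CPM (64.9 to 101) and 78.2 CPM (67.4 to 90.4), against 72.8 and 75.2 CPM in T-only cells, with Nodal giving 43 of 83 and 70 of 185 UMIs.

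Visceral endoderm also expresses Foxa2, and its markers were checked. The 23 extraembryonic endoderm genes summed to 226 CPM (198 to 257) and 236 CPM (217 to 256) in double-positive cells, with 13 and 6 of them at 0. T-only cells had 225 and 198 CPM. Foxa2-only cells had 2372 and 839 CPM, which is far outside the interval of the double-positive cells. Ttr, a carrier protein made by visceral endoderm, had no UMI and 3 UMIs in double-positive cells. At least 3 of the 9 defining markers were found in 0 of 75 and 1 of 210 double-positive cells, against 6 of 76 and 5 of 163 Foxa2-only cells.

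Foxa2-only cells shared part of this pattern. Eomes stood there at 144 and 296 CPM, Fgf8 at 173 and 301 CPM, Mixl1 at 19.95 and 41.8 CPM and Gsc at 14.4 and 56.6 CPM. Each value is below that of the double-positive cells of the same library, and for Gsc the intervals of both classes overlap in both libraries. Otx2 in the knockout-labelled library stood at 101.5 CPM in Foxa2-only cells, no lower than in double-positive cells.

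Beyond the anterior streak and organizer genes, the highest ratios over T-only cells belonged to genes of modest level. Some of them reached the minimum of 10 CPM only through the double-positive cells, so their place at the top is partly set by that minimum. Ndrg1, Apln, Arhgef26, Dapk2 and Tafa4 were below 10 CPM in T-only cells of both libraries. Ndrg1, a stress- and differentiation-regulated gene, had 13 and 44 UMIs in double-positive cells and stood at 12.8 against 3.68 CPM and 18.6 against 5.12 CPM. Apln (apelin), the secreted peptide ligand of the Aplnr receptor, stood at 28.5 against 9.05 CPM and 35.1 against 9.44 CPM, with log2 ratios of 1.68 (1.05 to 2.21) and 1.90 (1.52 to 2.25). Its receptor gene Aplnr had 1 and 4 UMIs. Adamts9, an extracellular matrix protease, stood at 31.4 against 10.9 CPM and 69.8 against 19.1 CPM. With membership on thinned cells, its ratio turned to -1.46 in the wild-type-labelled library and stayed at 1.70 in the other. Cdh11, a cadherin of mesenchymal cells, stood at 34.4 against 10.9 CPM and 29.6 against 11.4 CPM. In double-negative cells Cdh11 stood at 9.68 and 11.7 CPM, close to its level in T-only cells. Over Foxa2-only cells, Ndrg1 had log2 ratios of -0.37 (-1.57 to 0.79) and 1.08 (0.22 to 2.09). The interval of that ratio included 0 for Adamts9 and Dapk2 in the wild-type-labelled library too. It included 0 for Cdh11 and Arhgef26 in the knockout-labelled library. Apln was higher than in Foxa2-only cells in both, at 1.80 (0.65 to 3.31) and 1.49 (0.79 to 2.30).

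Arhgef26 and Dapk2, the latter a calmodulin-dependent kinase, followed with log2 ratios of 1.24 to 1.63. Dennd2c, Fam49a and Tafa4 complete the 12 highest, with ratios of 0.82 to 1.01. Ndrg1, Adamts9, Arhgef26 and Fam49a have annotated genes on the opposite strand, and Adamts9 and Tafa4 lie on chromosome 6. The other called genes include Fgf5, Gas1, Epha2, Lrig1, Lrig3, Vangl1, Amot and Peg3.

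Only 11 genes were 1.5-fold lower in both libraries, 0.144% of those compared. Dusp4, a phosphatase that limits ERK signalling, was the lowest, at 4.91 against 19.45 CPM and 6.34 against 13.4 CPM, with log2 ratios of -1.85 (-3.61 to -0.75) and -1.03 (-1.93 to -0.34). Ptn (pleiotrophin), a secreted growth factor, stood at 32.4 against 66.9 CPM and 27.5 against 42.8 CPM, and at 129 and 82.6 CPM in double-negative cells. Tle1, a Groucho corepressor, stood at 7.86 against 17.98 CPM and 8.88 against 14.9 CPM. The remaining genes were Syt11, Tap1, Igfbp4, Sgce, Zfp946, Enpp2, Trap1a and Zfp142. Each of these 8 had only 6 to 15 UMIs in the double-positive cells of the wild-type-labelled library. Dusp4 and Tle1 also rest on few UMIs. Both were below 10 CPM in double-positive cells of both libraries and reached the minimum only through T-only cells. Their place among the lowest is therefore partly set by that minimum. Igfbp4, Zfp946, Sgce and Zfp142 had mean levels of 10.8, 10.9, 11.5 and 12.0 CPM over the classes compared, close to the minimum. The same limit can apply to them, since they were lower in double-positive cells. Sox2, next in rank, missed the rule at -0.58 (-1.51 to 0.13) and -0.67 (-1.34 to -0.12).

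Each library taken by itself gave more genes than both together. In the wild-type-labelled library, 226 genes were 1.5-fold higher and 216 lower. The knockout-labelled library gave 88 higher and 84 lower. In both, 32 were higher and 11 lower, and 5 went in opposite directions. With high doublet scores left out, 30 of the 32 higher genes were called again, and 22 were called again without cells low on chromosome 6 or 11, which left 34 and 138 double-positive cells. When T-only cells were weighted to the T UMI counts and depth of the double-positive cells, 22 of the 32 were called. Against T-only cells with at least 2 T UMIs 18 of the 32 were called, with at least 2 UMIs of each gene 21, and with membership on thinned cells 15. Of the 11 lower genes, 9 were called again without high doublet scores and 9 with weighting. Only 4 of them were called without cells low on chromosome 6 or 11, 4 with at least 2 UMIs of each gene, 4 with a pseudocount of 2 and 1 with membership on thinned cells.

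**Figure D3:**
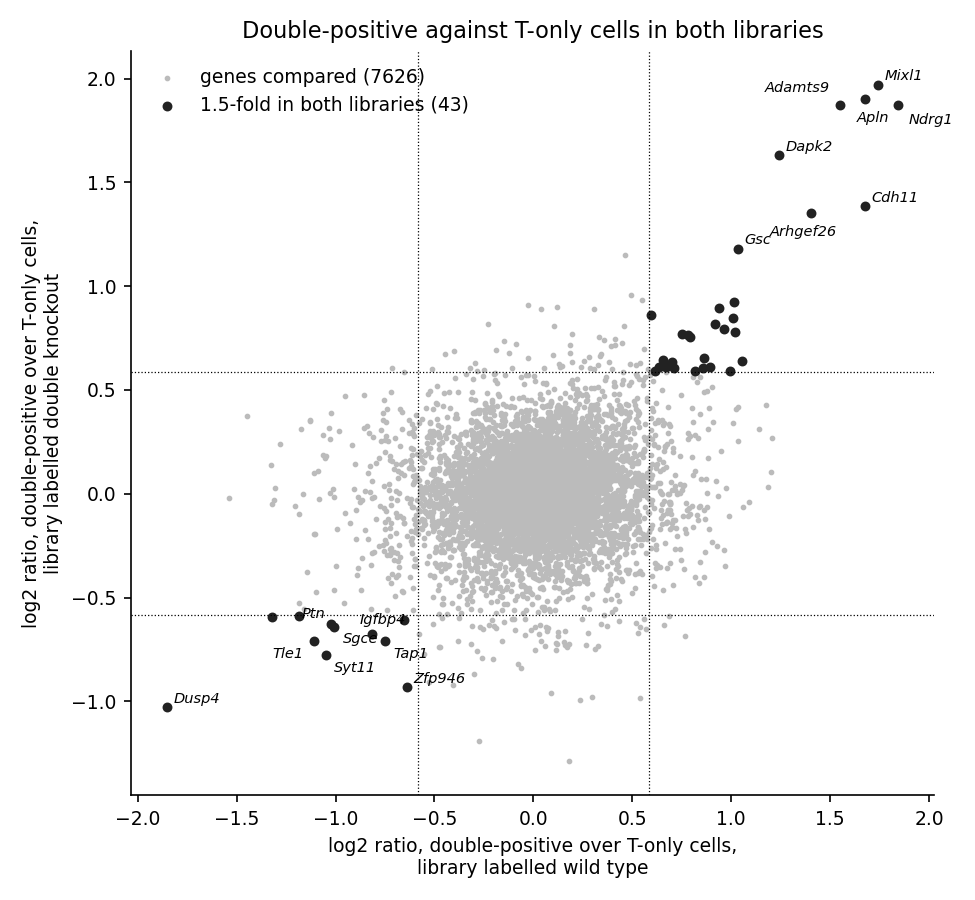
Log2 ratio of double-positive over T-only cells for 7626 genes, wild-type-labelled library on the x axis and knockout-labelled library on the y axis; dotted lines mark 1.5-fold and black points the 43 genes past it in both. Mixl1, Apln, Ndrg1 and Adamts9 lie farthest at the upper right and Dusp4 at the lower left.

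Signalling genes were compared by pathway, from ligands to targets. Over all genes 0.42% were called higher and 0.144% lower against T-only cells, so a pathway list without a call says little. In the Nodal pathway, Tdgf1 was the only 1 of 14 genes called over T-only cells, and the medians were -0.01 and 0.00. Lefty1, a feedback inhibitor of Nodal, stood at 49.1 against 70.8 CPM and 47.4 against 52.9 CPM. Pmepa1, a target and inhibitor of TGF-β signalling, stood at 75.6 against 41.8 CPM and 63.4 against 45.2 CPM, past 1.5-fold in the wild-type-labelled library only, with log2 ratios of 0.86 and 0.49. No difference between the libraries in that ratio was tested.

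Of 24 Wnt pathway genes none was called, with medians of 0.02 and 0.04. Wnt3, the ligand that induces the streak, stood at 63.8 against 54.8 CPM and 92.6 against 66.3 CPM. Axin2, a feedback inhibitor and general Wnt target, stood at 88.4 against 87.0 CPM and 77.0 against 78.9 CPM. Sp5 itself was higher than in T-only cells by 0.59 (0.37 to 0.80) and 0.36 (0.29 to 0.44) on the log2 scale, past 1.5-fold in the wild-type-labelled library only. Wnt11, a ligand of the non-canonical branch used in streak cell migration, was below the level minimum but stood at 10.8 against 2.50 CPM (11 UMIs) and 8.46 against 2.69 CPM (20 UMIs).

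In the FGF pathway 2 of 13 genes were called higher, Fgf8 and Fgf5, and 1 lower, Dusp4. Fgf5, an epiblast ligand, stood at 165 against 81.7 CPM and 184 against 107.5 CPM. Dusp6, another ERK phosphatase and FGF target, stood at 55.0 against 30.1 CPM and 28.8 against 23.3 CPM, with log2 ratios of 0.88 (0.45 to 1.26) and 0.31 (-0.08 to 0.66), the opposite direction to Dusp4. None of 10 BMP genes was called. Smad1, which carries the BMP signal to the nucleus, stood at 79.6 against 55.2 CPM and 79.1 against 54.1 CPM, just under 1.5-fold in both. In the Hedgehog list 1 of 6 genes was called, Gas1, a cell surface co-receptor, at 49.1 against 25.4 CPM and 66.8 against 38.6 CPM. Its ratio in the wild-type-labelled library turned to -0.64 with membership on thinned cells.

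Genes of epithelial-mesenchymal transition and adhesion gave 3 calls among 20, Eomes, Fgf8 and Cdh11, of which the first 2 also belong to the streak lists. Snai1, the repressor that starts the transition, stood at 14.7 CPM (15 UMIs) against 5.90 CPM and at 8.46 CPM (20 UMIs) against 4.79 CPM, under the level minimum. Cdh1, the epithelial cadherin, stood at 244 against 210 CPM and 185 against 181.5 CPM, and Cdh2, the mesenchymal one, at 18.7 against 28.0 CPM and 26.6 against 23.6 CPM. Esrp1, an epithelial splicing factor, stood at 40.3 against 23.0 CPM and 33.4 against 23.2 CPM. The list's medians were 0.19 and 0.17.

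Of 18 primed epiblast genes 3 were called higher (Fgf5, Otx2 and Tdgf1), while Pou5f1 stood at 771 against 728 CPM and 743.5 against 709 CPM. None of the 5 naive pluripotency genes was called, with Nanog at 159 against 135 CPM and 152 against 143 CPM. None of the 5 neural genes was called against T-only cells. Beside shares of 0.42% and 0.144% over all genes, the absence of calls in these 2 short lists says little. Against double-negative cells 4 of 7 neural genes were lower in both libraries, Sox2, Sox3, Irx3 and Irx5. Over all 7635 genes of that comparison 71 were higher, which is 0.93%, and 51 lower, which is 0.668%. Primitive streak genes gave 7 of 11 higher in it, among them Mixl1, Eomes, Fgf8, Evx1, Wnt3, Fst and Sp5, and 1 lower, Apela. T was absent from the double-negative cells by choice, so this wider gap includes the difference between cells with and without T.

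None of 6 caudal genes was called against T-only cells, a count that says little beside shares of 0.42% and 0.144% over all genes. The list's medians were -0.23 and 0.14. Cdx2, a homeobox gene of the posterior body, stood at 19.6 CPM (20 UMIs) against 13.3 CPM and at 8.46 CPM (20 UMIs) against 7.21 CPM. Among 42 S-phase genes 1 was called, Dscc1, and none of 52 G2/M genes or 16 stress response genes was. These counts say little beside the same shares. The list medians lay between -0.06 and 0.08. Summed G2/M genes stood at 10190 CPM (9995 to 10388) against 9696 CPM in T-only cells of the wild-type-labelled library. In the knockout-labelled library, summed S-phase genes stood at 5472 CPM (5378 to 5567) against 5601 CPM. Stress genes stood there at 2205 CPM (2146 to 2266) against 2141 CPM. The T-only level lay outside these intervals and inside those of the other sums. Cdkn1a of the stress list was lower in both libraries, under 1.5-fold, as given below.

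**Figure D4:**
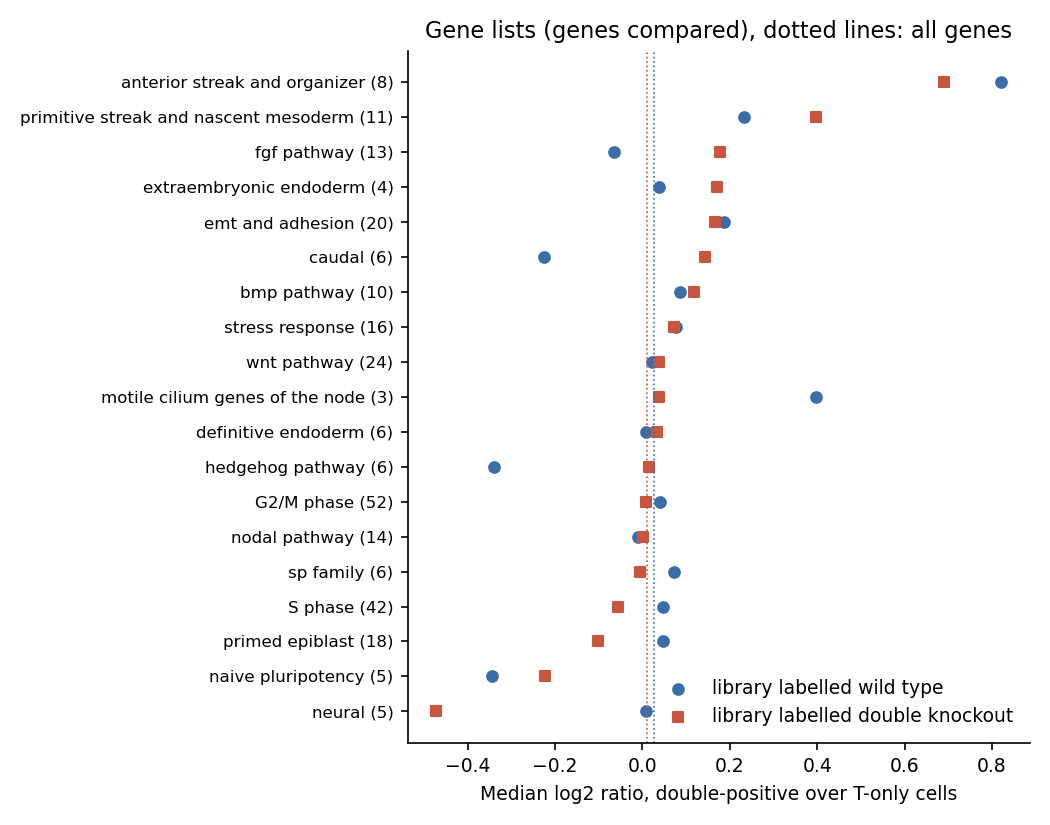
Median log2 ratio of double-positive over T-only cells (x axis) for each gene list with at least 3 genes compared (y axis, number of genes in brackets), circles for the wild-type-labelled library and squares for the knockout-labelled library; dotted lines are the medians of all genes. The anterior streak and organizer list lies farthest right, at 0.82 and 0.69, and the neural list has the lowest value in the knockout-labelled library.

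Levels within the double-positive cells are given next by their Foxa2 and T UMIs, as a description, since these UMIs chose the cells. Those with at least 2 Foxa2 UMIs (19 and 77 cells) had Mixl1 at 161 CPM (117 to 215) and 133 CPM (111 to 159), against 47.4 CPM (33.0 to 65.9) and 78.5 CPM (64.7 to 94.4) in those with 1 Foxa2 UMI. Fgf8 followed the same order, at 397 against 245 CPM and 415 against 369 CPM, with intervals that overlap in the knockout-labelled library. Gsc stood at 42.9 against 28.4 CPM and 80.0 against 66.7 CPM, with overlapping intervals in both libraries. Splitting by T gave another picture in the wild-type-labelled library, where cells with at least 2 T UMIs had Eomes at 307 against 143 CPM, Mixl1 at 118 against 33.7 CPM and Otx2 at 88.3 against 29.5 CPM. In the knockout-labelled library the same split gave Eomes at 402 against 400 CPM and Otx2 at 97.5 against 99.8 CPM. No difference between the libraries in these splits was tested, and the groups are small.

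Cdx2, a mark of posterior identity, was present in 12 of 75 double-positive cells of the wild-type-labelled library and in 18 of 210 (8.57%) of the other. The 12 cells of the wild-type-labelled library with Cdx2 had Mixl1 at 20.2 CPM (3 UMIs) and the 63 without it at 88.5 CPM, with intervals that do not overlap. In the knockout-labelled library the 18 cells with Cdx2 had Mixl1 at 123 CPM and the 192 without it at 97.8 CPM, the opposite order with overlapping intervals. Gsc itself stood at 33.7 CPM with Cdx2 and 32.2 CPM without it in the wild-type-labelled library, and at 64.4 and 72.5 CPM in the other. Eomes was higher in the 25 and 103 cells with Gsc, at 296 against 193 CPM and 439 against 362 CPM, and the intervals do not overlap in either library. Mixl1 was alike in cells with and without Gsc in the wild-type-labelled library, at 80.8 and 77.3 CPM, and higher with Gsc in the knockout-labelled library, at 131 against 67.3 CPM.

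Between the libraries, 318 of 7608 genes (4.18%) were at least 1.5-fold higher in the double-positive cells of the knockout-labelled library and 460 (6.05%) were lower. With 75 cells in the wild-type-labelled library, a gene at 10 CPM there rests on about 10 UMIs, so most of these genes carry wide intervals. When the minimum was set at 20 CPM, a level chosen after seeing the data, 131 and 188 genes remained. Sp5 had the highest ratio, at 1.83 (1.62 to 2.06), and 2.06 in T-only cells. The next 9 were Apeh, Cenpt, Amz2, Tst, Ppt2, Zfp239, Pml, Akap7 and Rabggta, at 1.39 to 1.77. They had 5 to 10 UMIs in the wild-type-labelled library, and their ratio in T-only cells was only -0.05 to 0.52. All 9 were below 10 CPM in the wild-type-labelled library and reached the minimum only through the knockout-labelled library. Their rank is therefore partly set by that minimum.

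A few of the named genes differed between the libraries in T-only cells too. Grb10, an imprinted adaptor that restrains insulin and growth factor signalling, stood at 70.7 CPM (55.3 to 89.1) in the wild-type-labelled library and 8.46 CPM (5.17 to 13.1) in the knockout-labelled library, with a log2 ratio of -3.04 (-3.86 to -2.33) and -2.78 in T-only cells. It lies on chromosome 11, where 41.3% and 10.0% of double-positive cells had a low share, and its log2 ratio was -2.75 without cells low on chromosome 6 or 11 and -3.95 without high doublet scores. Foxb1, a forkhead gene of the neural plate, stood at 85.4 and 31.7 CPM, with -1.43 (-1.89 to -0.97) and -0.86 in T-only cells. The other lowest genes, Shroom3, Neto2, Helq, Cabp7, Ocln, Oip5, Tmem64 and Frmd4b, had 13 to 20 UMIs in the knockout-labelled library and ratios of -1.53 to -1.31, against -0.67 to 0.12 in T-only cells. These genes were below 10 CPM in the knockout-labelled library and reached the minimum only through the wild-type-labelled library, which partly sets their rank.

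Of the 8 anterior streak genes compared between the libraries, 3 were called higher, Gsc, Eomes and Otx2, and none lower. Gsc had a log2 ratio of 1.13 (0.61 to 1.73), Eomes 0.80 (0.59 to 1.01) and Otx2 0.69 (0.28 to 1.12). T-only cells gave 0.98, 0.78 and 0.79, values inside the intervals of the double-positive cells, and the difference between the classes was not tested. These calls depended on the cells used. Gsc was at 0.45, under 1.5-fold, without cells low on chromosome 6 or 11. With at least 2 UMIs of each gene (11 and 46 cells), Eomes was at 0.24 and Otx2 turned to -0.18. Mixl1 (0.34, interval -0.03 to 0.73), Apln (0.29) and Cdh11 (-0.23), which were called against T-only cells, had intervals that include 0. Among 5 neural genes 3 were lower, Foxb1, Sox3 and Pou3f1, with a list median of -0.78 against -0.31 in T-only cells. The Pou3f1 call was lost with at least 2 UMIs of each gene. Over all genes 4.18% were called higher and 6.05% lower. Of 5 caudal genes 1 was lower, Cdx2, at -1.22 (-2.19 to -0.25).

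**Figure D5:**
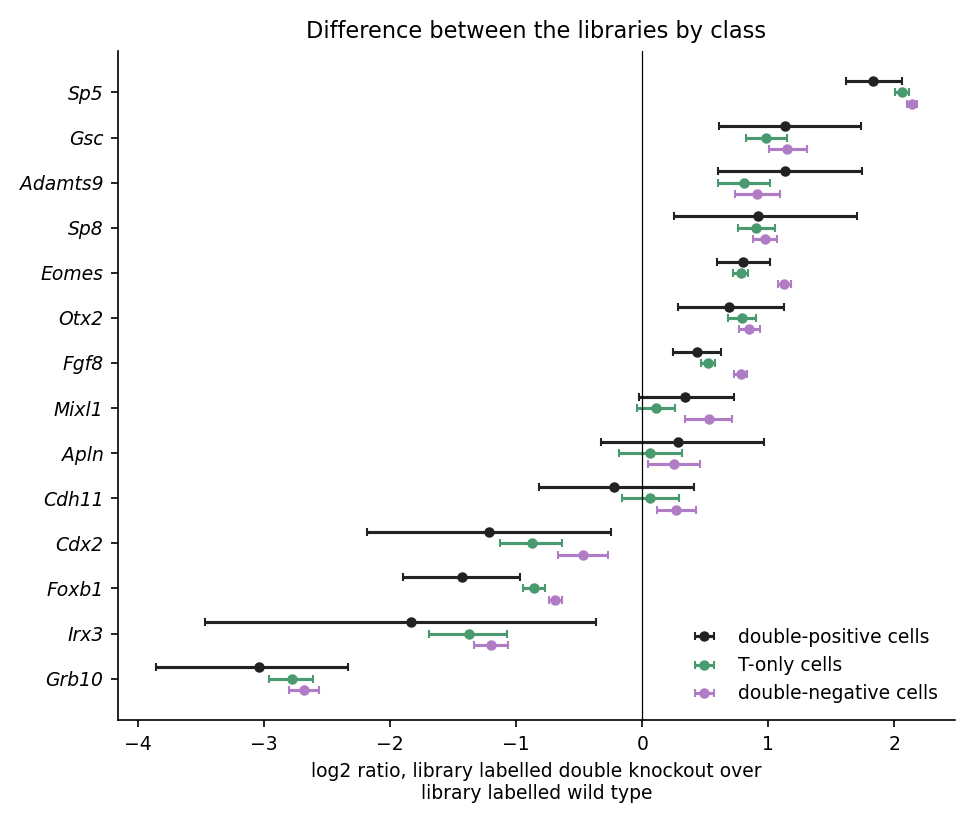
Log2 ratio of the knockout-labelled library over the wild-type-labelled library (x axis) for 14 genes (y axis) in double-positive, T-only and double-negative cells; points are ratios of summed UMIs and bars exact conditional 95% intervals for counting error. Sp5 is highest and Grb10 lowest in all 3 classes, and the intervals of the double-positive cells are the widest.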

How the data were processed

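Single-cell RNA libraries were made with 10x 3′ chemistry from 2 samples. As deposited, each matrix holds raw, whole-number UMI counts by gene for all 6794880 listed barcodes. The labels name Cell Ranger 8.0.1, and the submitters' processing notes name STARsolo, STAR 2.7.9a, Seurat 5.1.0 and mm10; which tool wrote the matrices, and its strand setting, are not given in the sources used here. The labelled median genes per cell (5333 and 5398) differ from those of the deposited counts (3275 and 2884).

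The members, lists and rules were chosen with earlier results of these data known. UMIs were summed per library and class and scaled to CPM of all UMIs of the class. Sums have exact Poisson intervals, ratios (pseudocount 0.5) exact conditional intervals of 2 Poisson sums, and shares Clopper-Pearson intervals, all at 95% and for counting error only. A limit for 0 found is 3 counts of the total. A gene was called at 1.5-fold in both libraries (between libraries, 1.5-fold) with a mean CPM of at least 10. Named genes were the 12 highest and 12 lowest over T-only cells, ranked by the smaller of the 2 ratios, the 10 highest and 10 lowest between libraries, leaving out mitochondrial, ribosomal, predicted and clone-named genes, and up to 5 genes of each of 20 lists. Genes named beyond these are list members given for their role, or called genes chosen after their values were seen. Doublets were kept in the main values and scored against artificial doublets (2000 variable genes, 30 components, 50 neighbours), taking the top 0.8% per 1000 cells, 606 and 897 cells; the lowest score taken was 0.94. The scripts were tested on simulated data. Python 3.11.15, numpy 2.4.6, scipy 1.17.1, scikit-learn 1.9.0 and, for TMM scaling, edgeR 4.0.16 were used.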

Additional observations from a re-analysis of the deposited data

Results flagged for a closer look

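Helq, a DNA helicase, was the one named gene at least 1.5-fold higher than in T-only cells in 1 library and at least 1.5-fold lower in the other. It was named for its difference between the libraries. Other genes named for that difference also had opposite signs without passing 1.5-fold in both, such as Ocln at 0.82 and -0.40 and Oip5 at 0.54 and -0.98. Its log2 ratio over T-only cells was 0.66 (-0.06 to 1.25) in the wild-type-labelled library and -0.63 (-1.44 to 0.01) in the knockout-labelled library. These rest on 22 and 18 UMIs, both intervals include 0, and the difference was not tested.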

How the results depend on the processing

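With 1 library per genotype, the 75 double-positive cells of the wild-type-labelled library set the precision of every comparison. No paired analysis was possible because each genotype has 1 library and no test was made. The 43 genes called against T-only cells became 299 with at least 2 UMIs of each gene (11 and 46 cells), 376 with membership on cells thinned to 2500 UMIs (12 and 39 cells), 448 at a mean CPM of 1, 9 at 50 CPM, 9 at 2-fold, 65 without cells low on chromosome 6 or 11, and 27 against T-only cells with at least 2 T UMIs, an alternative chosen after seeing the data. The 122 genes called against double-negative cells became 404 with at least 2 UMIs of each, 593 at 1 CPM, 23 at 50 CPM and 34 at 2-fold. The 778 genes called between the libraries became 2771 with at least 2 UMIs of each, 3096 at 1 CPM, 46 at 50 CPM, 319 at 20 CPM, 113 at 2-fold and 1312 without cells low on chromosome 6 or 11. Shares of kept cells were 0.126% and 0.434% with at least 2 UMIs of each, 0.138% and 0.368% thinned to 2500 UMIs and 0.229% and 0.893% thinned to 5000. The other settings kept each count within 1.5 times, among them 48 calls without high doublet scores and with weighted T-only cells, chosen after seeing the data. The settings with at least 2 UMIs of each gene and with thinned membership use fewer cells, and higher minimums test fewer genes. The cause of the other changes was not tested.

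The share of calls that were higher was 74.4%, 58.2% and 40.9% in the 3 comparisons. TMM scaling made it 64.9%, 46.0% and 51.1%, and a pseudocount of 2 made it 92.3%, 70.8% and 28.8%. With at least 2 UMIs of each gene, the ratio over T-only cells turned to 0.30 for Igfbp4 in the wild-type-labelled library, and to 0.087 for Trap1a and 0.36 for Zfp142 in the other. On thinned membership it turned to -1.46 for Adamts9 and -0.64 for Gas1 in the wild-type-labelled library, and to 0.14 for Igfbp4, 0.62 for Syt11, 0.24 for Zfp142 and 0.29 for Zfp946 in the other. Between the libraries, at least 2 UMIs of each gave -0.30 for Apeh, -0.50 for Cenpt, -0.21 for Axin1, 1.82 for Brip1, -0.18 for Otx2, 0.015 for Pou3f1, -0.23 for Sp8, -0.062 for Spry2 and 0.35 for Wdr76, and cells of 5000 to 20000 UMIs gave 0.071 for Brip1. Of the named and listed genes' values over T-only cells, 6659 stayed within their interval, 482 moved and 9 reversed.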

Other observations

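Among the 51 genes lower in double-positive than in double-negative cells in both libraries were Mdm2, the ligase that degrades p53, Phlda3, Plk2, Rbm38, Perp, Polk, Pidd1 and Zfp365. Mdm2 had log2 ratios of -0.84 and -0.60, and Phlda3 -0.98 and -0.65. They were named after their values were seen, belong to no list, and were not tested as a group. Cdkn1a, a cell cycle inhibitor in the stress list, stood at 304 against 367.5 CPM in T-only cells and at 292 against 357 CPM, with log2 ratios of -0.27 (-0.44 to -0.11) and -0.29 (-0.40 to -0.18), under 1.5-fold.

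Trh, the thyrotropin-releasing hormone precursor listed with endoderm genes, stood at 441 against 576 CPM in T-only cells of the wild-type-labelled library and at 771 against 895 CPM in the knockout-labelled library. Between the libraries its log2 ratio in double-positive cells was 0.81 (0.66 to 0.96).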
